A study of Mus musculus with 6 samples.

Results

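Neurofilaments, stathmins and the growth-cone protein gene Gap43 were examined in whisker pads of E12.5 mouse embryos, the skin of the snout that carries the vibrissae. The 9 genes are Nefl, Nefm, Nefh, Ina, Prph, Stmn2, Stmn3, Stmn4 and Gap43, out of 12393 genes measured. They were taken by symbol from the platform annotation, which gave 16 of the 22626 mouse probe sets. The genes were proposed with their levels, their mutant minus wild-type differences and their co-variation already known. Those values are therefore given below as a description, with no test of their own and no p-value.

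The arrays came from 3 embryos homozygous for a Trps1 mutation and from 3 wild-type embryos, with whole whisker pad RNA of 1 embryo on each Affymetrix MOE430A array. The allele, the strain and the sex are not given in the labels. Trps1 is a transcriptional repressor with a zinc finger of the GATA type, and the study asked for its targets in vibrissae. A whole pad holds epithelium, mesenchyme, muscle precursors, vessels, blood and nerve, so a level in it cannot tell fewer cells of a type from less RNA per cell.

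Neurofilaments are the intermediate filaments of axons, built from a light, a medium and a heavy chain, with alpha-internexin and peripherin as further partners. Stathmins bind tubulin dimers and regulate microtubule growth, and the neuronal members sit on membranes of the Golgi and the growth cone. The whisker pad is innervated by sensory axons of the trigeminal ganglion, which reach it while the follicles are forming. The cell bodies of those neurons lie in the ganglion, outside the skin.

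At the probe set with the highest mean, Stmn2, Nefm and Ina read higher on every mutant array than on every wild-type array. Stmn4 did so too, near background, and 5.54% of all genes did. At their other probe sets Stmn2 and Ina overlapped between the groups. Nefl read higher on average with an overlap of 1 array pair. Gap43 was within 0.15 on the log2 scale of its wild-type level. Nefh and Stmn4 lay near background on the arrays, and Prph and Stmn3 overlapped between the groups. Over all probe sets 0 of 22626 (0%) passed limma with Benjamini-Hochberg adjustment at 0.05, so 0 of the 16 did, while 1193 (5.27%) had an unadjusted p under 0.05. The methods' t-test likewise passed 0, with 1137 (5.03%) at an unadjusted p under 0.05.

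Signals below are the deposited linear values. Each difference is the mutant mean less the wild-type mean of log2(signal + 16), with the standard error of the fit over all probe sets. Ratios between probe sets are the exception, and their standard errors are described with them. The added 16 pulls the differences of dim probe sets toward 0. The 6 arrays shared a 2% trimmed mean of 250.1. The 27 probe sets for the bacterial Dap, Lys, Phe, Thr and Trp control transcripts read 0.4 to 33.8, and a probe set is called near background where both of its group means lie at or below 33.8. By Xist (461.5 against 44 to 93.7) and Eif2s3y (11.9 against 207.3 to 272.3), wild-type replicate 3 had the pattern of a female embryo and each of the other 5 arrays that of a male. The actin control signal at the 3′ end over that at the 5′ end was 1.35 on mutant replicate 3 and at most 1.19 elsewhere. Both replicate 3 arrays stood apart on the first principal component, which held 28.7% of the variance. Trps1 itself read 1297.3, 1491.9 and 1506.7 in the mutant pads and 807.6, 1061.4 and 748.1 in the wild-type pads, a difference of 0.72 (SE 0.18, limma adjusted p = 0.677 over all probe sets). Where its probe set lies relative to the mutation is not stated, so this level neither bears out nor contradicts the genotype labels.

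The neurofilament chains were measured by 1 probe set each. Nefm, the medium chain (1422520_at), read 241.7, 139.6 and 161.5 in the mutant pads and 77.8, 58.3 and 98.7 in the wild-type pads. All 3 mutant values lay above all 3 wild-type values, and mutant replicate 1 was the highest of the 6. The means were 181 ± 53.8 in mutant and 78.3 ± 20.2 in wild-type pads (SD, n = 3 each), a 2.31-fold ratio of means and a difference of 1.05 (SE 0.25). Without mutant replicate 1 the difference was 0.84, without wild-type replicate 3 it was 1.20, and without both replicate 3 arrays it was 1.26.

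Nefl, the light chain on which the other chains assemble (1426255_at), read 210.7, 121.5 and 143.8 in the mutant pads and 84, 72.5 and 122.8 in the wild-type pads. The groups overlapped because wild-type replicate 3 lay just above mutant replicate 2. The means were 159 ± 46.4 in mutant and 93.1 ± 26.4 in wild-type pads (SD, n = 3 each), a difference of 0.67 (SE 0.25). That difference was 0.47 with mutant replicate 1 left out and 0.86 with wild-type replicate 3 left out.

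Nefh, the heavy chain, which in axons accumulates late, read 28.8, 5.2 and 3.7 in the mutant pads and 3.5, 7.5 and 7.9 in the wild-type pads. All 6 values were below the highest bacterial control. Its difference of 0.26 (SE 0.32) came from mutant replicate 1 and was -0.12 without that array. The array on which Nefh was highest was also the one on which Nefl and Nefm were highest.

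Ina encodes alpha-internexin, an intermediate filament protein of neurons that appears early in development, and has 3 probe sets. At the brightest (1418178_at) it read 76.9, 44.9 and 75.1 in the mutant pads and 34.5, 43.3 and 42.9 in the wild-type pads. The groups did not overlap, but mutant replicate 2 lay only just above the highest wild-type value. The difference was 0.52 (SE 0.21). A further probe set (1448991_a_at) read 45.2, 36.8 and 44.7 in the mutant pads and 27.6, 27.9 and 52.1 in the wild-type pads. There wild-type replicate 3 was the highest of all 6 arrays, the groups overlapped and the difference was 0.20 (SE 0.22), or 0.41 without that array. The last probe set of Ina was near background, with a difference of -0.06 (SE 0.28).

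Prph encodes peripherin, an intermediate filament protein of peripheral neurons, and has 4 probe sets. The only one of them with a source accession in the annotation (1422530_at) read 2.9, 7 and 2.9 in the mutant pads and 4.6, 2.4 and 3.5 in the wild-type pads, all far below the highest bacterial control. The brightest (1449796_at) read 26.9, 59.2 and 25 in the mutant pads and 29.7, 51.5 and 82.9 in the wild-type pads. Its groups overlapped, and the difference was -0.40 (SE 0.34). The other 2 are marked in their names as sharing probes with other sequences, were near background and differed by -0.35 (SE 0.32) and -0.02 (SE 0.38). At the probe set with a source accession, peripherin RNA was thus not measured above background.

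The neuronal stathmins differed from one another. Stmn2, the growth-cone stathmin also called SCG10, has 2 bright probe sets. At 1423281_at it read 1146.9, 983.6 and 1237.4 in the mutant pads and 661.2, 622 and 652 in the wild-type pads. The wild-type arrays lay close together, and every mutant array lay well above the highest of them. The means were 1123 ± 129 in mutant and 645 ± 20.5 in wild-type pads (SD, n = 3 each), a difference of 0.78 (SE 0.16). Without any 1 array the difference stayed between 0.71 and 0.87.

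At the other Stmn2 probe set, 1423280_at, the signal was 614.5, 754.2 and 806.9 in the mutant pads and 471.9, 596 and 630.2 in the wild-type pads. Here mutant replicate 1 fell below wild-type replicate 3, so the groups overlapped. The difference was 0.35 (SE 0.19), smaller than at the brighter probe set. Both probe sets are annotated to the same source sequence. The ratio of the brighter to the dimmer probe set was 1.87, 1.30 and 1.53 in the mutant pads and 1.40, 1.04 and 1.03 in the wild-type pads, and these ranges overlapped. In both groups the ratio was highest on replicate 1.

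Stmn3, also called SCLIP, was measured by 2 probe sets. The brighter, marked in its name as sharing probes with other sequences, read 49.5, 33.9 and 51 in the mutant pads and 62.4, 53 and 25.8 in the wild-type pads, a difference of -0.02 (SE 0.27). The dimmer one was near background and differed by -0.27 (SE 0.29). Stmn4, also called RB3, read 7.3, 11.9 and 11.7 in the mutant pads and 4.8, 5.6 and 7.1 in the wild-type pads. Its groups did not overlap, but all values lay below the highest bacterial control, so the difference of 0.26 (SE 0.16) was 0.71 with an offset of 1 and 0 with a floor of 32.

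Gap43, a membrane protein of growth cones and a protein kinase C substrate, read 1225.7, 1108.6 and 1160.3 in the mutant pads and 1120.1, 989.8 and 1036 in the wild-type pads. The lowest mutant value lay just below the highest wild-type value. The means were 1165 ± 58.7 in mutant and 1049 ± 66.1 in wild-type pads (SD, n = 3 each), a difference of 0.15 (SE 0.15). Without any 1 array the difference was 0.11 to 0.20.

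**Figure D1:**
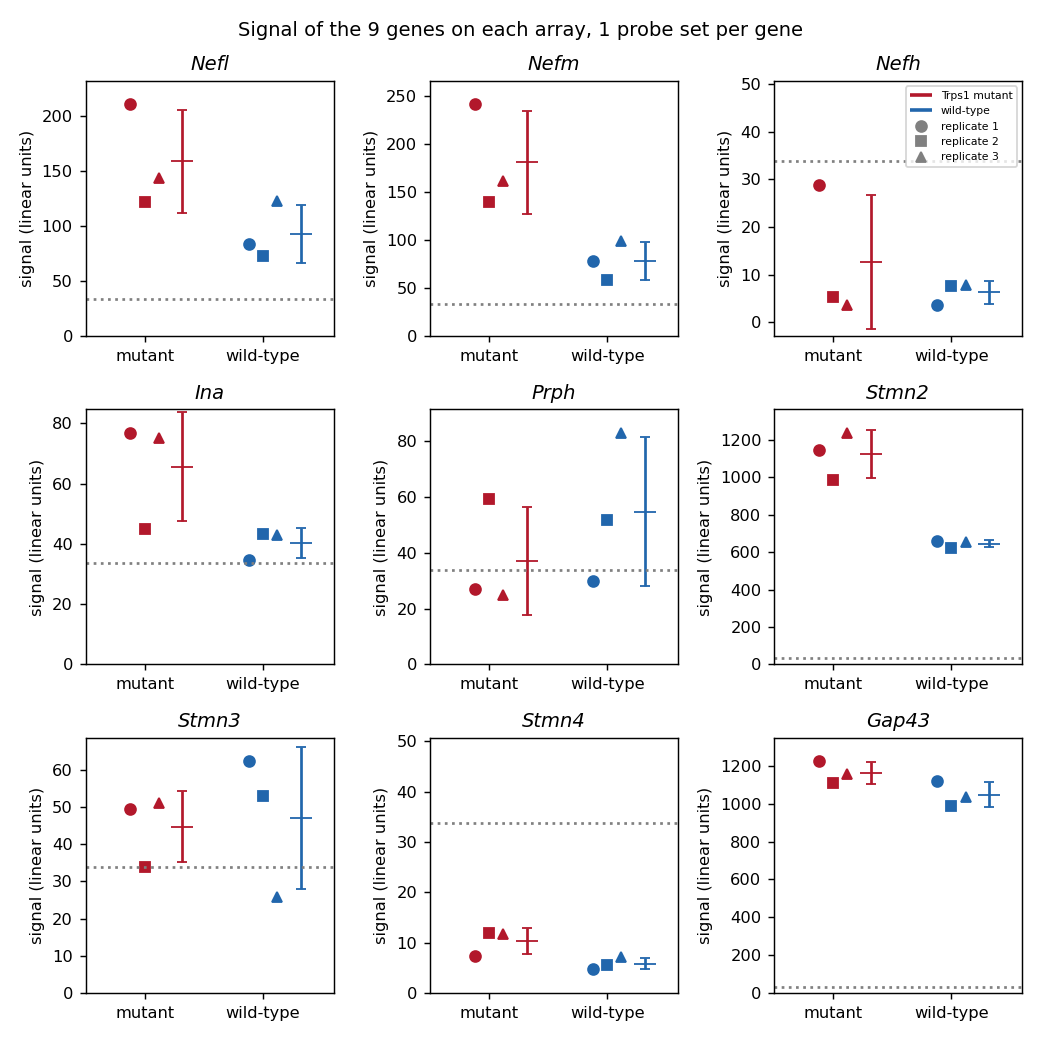
Linear signal of each gene's brightest probe set on the 6 arrays, mutant left of wild-type in each panel, with marks for replicates, a bar for the mean and SD (n = 3) and a dotted line at 33.8, the highest bacterial control. Stmn2, Nefm and Ina separate the groups above the line, while Nefh and Stmn4 lie below it.

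Over the 16 probe sets, 4 had groups that did not overlap with the mutant higher (5.41% of all probe sets did), and 0 with the mutant lower (4.76%). The 4 were those of Nefm, Stmn4 and the brightest of Stmn2 and of Ina. By limma at the study's threshold, an unadjusted p of at most 0.05 and at least 1.5-fold, 3 of the 16 were higher (1.71% of all probe sets) and 0 lower (1.48%), the 3 being those of Nefl, Nefm and the brighter one of Stmn2. By the methods' t-test at that threshold, 2 of the 16 were higher (0.853%) and 0 lower (0.734%). The 2 were those of Nefm and the brighter one of Stmn2. These shares were part of what the genes were chosen on, so nothing is read from them. The authors' deposited table of 65 probe sets holds 1 of the 16, the brighter Stmn2 probe set, with a linear fold of 1.69 and normalized log2 values of 0.46 in mutant and -0.29 in wild-type. By the fit the median difference over the 9 brightest probe sets was 0.26, against 0 over all 12393 genes, and 7 of the 9 were above 0 (50.1% of all genes).

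**Figure D2:**
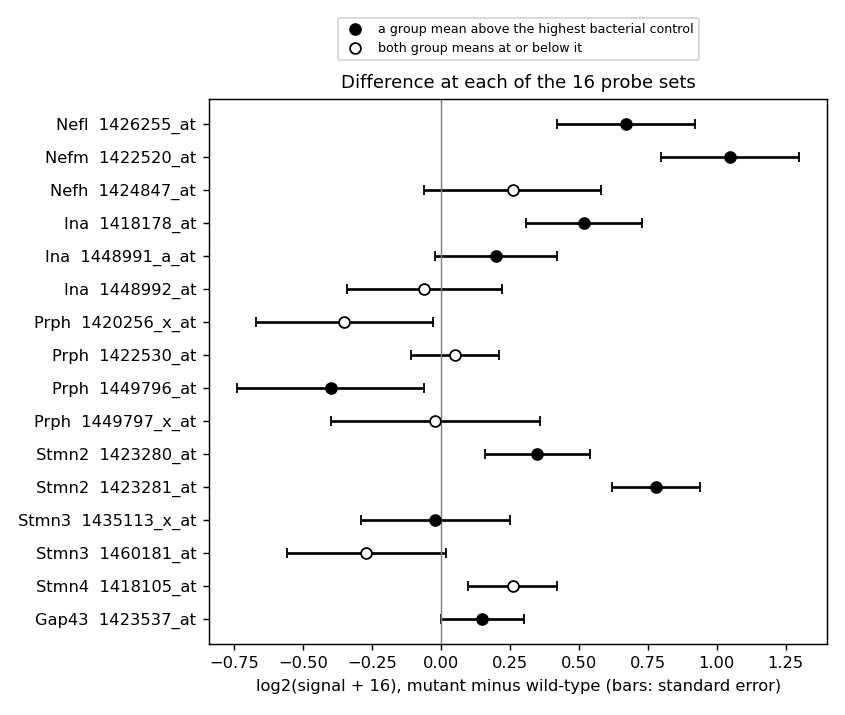
Difference between mutant and wild-type on the log2(signal + 16) scale at each of the 16 probe sets, with bars for the standard error of the fit. Filled points have a group mean above the highest bacterial control, and open points, both means at or below it, lie between -0.35 and 0.26.

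Ratios between members on the same array are given as a description, for pairs picked after the values were seen. Within an array, the ratio of Nefm to Nefl signal was 1.15, 1.15 and 1.12 in the mutant pads and 0.926, 0.804 and 0.804 in the wild-type pads. The mutant ratios spread by an SD of 0.0144 around 1.14, although the signals of both genes differed by more than 1.5-fold between mutant arrays. Log2 differences of ratios, here and below, were taken with the same added offset as the other differences, so they are not the log2 of the printed ratios. Their standard errors come from the spread of each ratio within the groups, without the fit over all probe sets. They are therefore not comparable with the standard errors of single probe sets. The log2 ratio of Nefm to Nefl was higher in mutant pads by 0.38 (SE 0.06). Between the 2 probe sets of Stmn2, which are annotated to 1 source sequence, the log2 ratio was higher in mutant pads by 0.43 (SE 0.20). That shift was of similar size, but its groups overlapped, whereas those of Nefm to Nefl did not. Probe sets differ in how they bind, and the ratio gives no relative abundance. Nefl and Nefm lie next to each other on chromosome 14, with 0 protein-coding genes listed between them in the RefSeq annotation.

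The ratio of the brighter Stmn2 probe set to Gap43 was 0.936, 0.887 and 1.07 in the mutant pads and 0.590, 0.628 and 0.629 in the wild-type pads, with no overlap and a log2 difference of 0.63 (SE 0.08). With the dimmer Stmn2 probe set the ratio to Gap43 was 0.501, 0.680 and 0.695 in the mutant pads and 0.421, 0.602 and 0.608 in the wild-type pads, which overlapped, with a difference of 0.20 (SE 0.23). The ratio of Nefm to Gap43 was likewise higher on all mutant arrays, by 0.90 (SE 0.24). That of Nefl to Gap43 overlapped between the groups, with a difference of 0.52 (SE 0.26), and those of Stmn2 to Nefm and to Nefl overlapped as well.

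**Figure D3:**
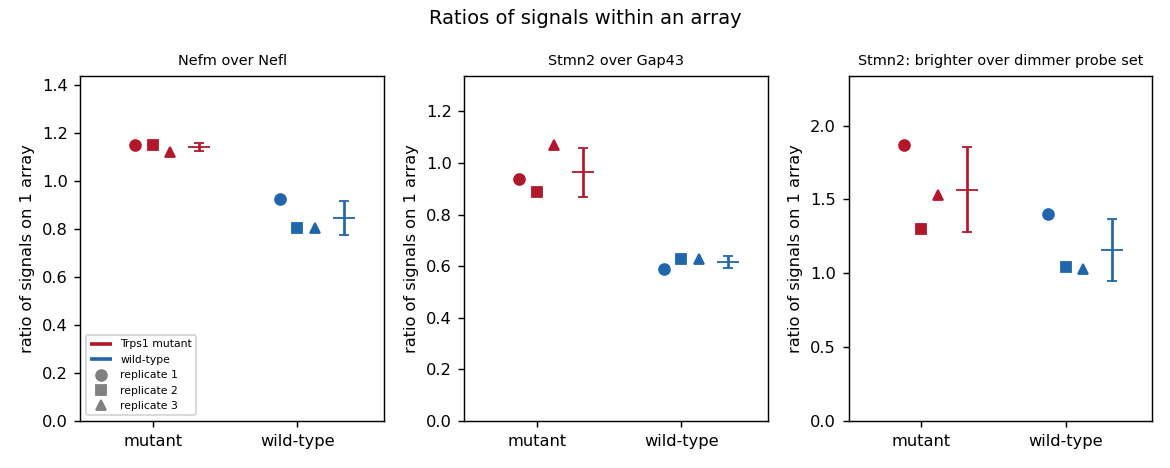
Ratio of 2 probe set signals on each array for Nefm over Nefl, the brighter Stmn2 probe set over Gap43 and the brighter over the dimmer Stmn2 probe set, mutant left of wild-type, with bars for the mean and SD (n = 3). The first 2 ratios separate the groups, at 1.12 to 1.15 against 0.804 to 0.926 for Nefm over Nefl, and the last does not.

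Across arrays, Nefl and Nefm followed each other within each group, in the order replicate 1, 3, 2 in the mutant pads and 3, 1, 2 in the wild-type pads. As a description over 6 arrays, the Pearson r of their deviations from the group means was 0.98. Over the 6 values as they stand r was 0.97 and Spearman's rho 0.94, and r was 0.88 over the 4 arrays left without mutant replicate 1 and wild-type replicate 2. The arrays fall into 2 groups, and all genes of an array share its RNA and scaling, so no p is given. The deviations of Nefm and Stmn2 correlated at 0.45 and those of Ina and Stmn2 at 0.77. Prph ran against Stmn3 at -0.93 and against Gap43 at -0.70, with Prph signals close to background.

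On average over the 9 genes, the deviation from each gene's mean over all arrays was 0.36, 0.05 and 0.14 in mutant replicates 1 to 3, and -0.24, -0.23 and -0.08 in wild-type replicates 1 to 3. On the mutant arrays 6 or 7 of the 9 genes were above their own mean, and on each wild-type array 2 were. Mutant replicate 1 carried the highest deviations of the 3 neurofilament chains, 0.95 for Nefm, 0.75 for Nefl and, below the highest bacterial control, 0.88 for Nefh, while Stmn2 was highest on mutant replicate 3, at 0.53.

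**Figure D4:**
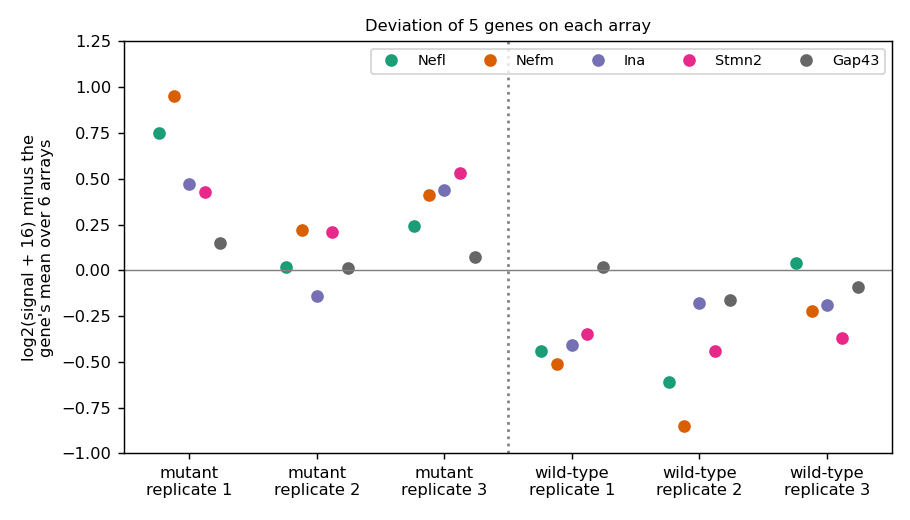
Deviation of Nefl, Nefm, Ina, Stmn2 and Gap43 from each gene's mean over 6 arrays, in log2(signal + 16) units, with mutant arrays on the left and wild-type arrays on the right. Nefl and Nefm run from 0.75 and 0.95 on mutant replicate 1 to -0.61 and -0.85 on wild-type replicate 2, and Gap43 stays between 0.15 and -0.16.

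The promoters of Ina, Prph and Stmn3 are shown because these are the members with an entry in the RefSeq promoter table (GRCm38.p6) used here. They are the 250 bases before the start used in that table, 5′ to 3′ on the strand of the gene, with capitals for matches to any searched motif on either strand. The motifs were the GATA motif, which GATA-type zinc fingers bind and which was searched as GATAA or as GATAG with A or T before it, the TATA box (TATAAA), the GC box (GGGCGG), an E-box (CAGCTG or CAGATG) and a CRE core (TGACG). Ina is at chr19:47014431-47014680 (+), Prph at chr15:99054924-99055173 (+) and Stmn3 at chr2:181314501-181314750 (-). The Ina and Stmn3 windows abut the start of the annotated gene, whereas the Prph window lies inside the annotated gene, chr15:99053579-99058978, before a start downstream of its outermost one.
Ina: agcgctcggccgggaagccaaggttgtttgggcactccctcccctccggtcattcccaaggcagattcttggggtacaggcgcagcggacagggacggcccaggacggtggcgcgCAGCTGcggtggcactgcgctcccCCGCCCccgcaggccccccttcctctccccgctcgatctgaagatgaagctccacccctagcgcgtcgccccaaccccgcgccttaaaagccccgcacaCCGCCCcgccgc
Prph: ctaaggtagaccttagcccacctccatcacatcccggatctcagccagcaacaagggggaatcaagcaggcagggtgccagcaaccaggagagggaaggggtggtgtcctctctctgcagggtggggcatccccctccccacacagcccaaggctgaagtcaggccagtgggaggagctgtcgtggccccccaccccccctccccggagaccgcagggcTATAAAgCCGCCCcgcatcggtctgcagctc
Stmn3: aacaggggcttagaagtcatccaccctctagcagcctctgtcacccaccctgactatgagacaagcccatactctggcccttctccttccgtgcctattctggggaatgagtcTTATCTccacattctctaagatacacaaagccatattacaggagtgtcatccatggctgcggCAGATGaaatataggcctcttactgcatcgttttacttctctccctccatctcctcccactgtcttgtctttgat
The Ina window held an E-box and 2 GC boxes. The Prph window held a TATA box, starting 31 bases before the start, and a GC box. The Stmn3 window held a GATA motif on the other strand, as TTATCT starting 137 bases before the start, and an E-box. Among all 32851 promoters of the same length, 26.5% held a GATA motif, 12.4% a TATA box, 32.7% a GC box, 25.5% one of the E-boxes and 17.8% a CRE core. A match says only that these letters stand in the window. Of the 3 genes, Ina read higher in the mutant at its brightest probe set, while Prph and Stmn3, with values close to background, overlapped between the groups.

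A list of 55 other genes of axons and their cytoskeleton, 51 of them measured and 45 with a mean above the highest bacterial control, was described beside the members. It was chosen with earlier results of these data known. The median difference was 0.16, against 0 over all genes. Of the 51, 32 were higher in the mutant and 19 lower. The groups did not overlap with the mutant higher for 8 of them, 15.7% of the list (5.54% of all genes), and with the mutant lower for 0 (4.83%). At an unadjusted p under 0.05 by limma there were 2 higher (2.70% of all genes) and 0 lower (2.34%), and 0 passed over all probe sets.

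Those 2 were Cntn2 and Sptbn1. Cntn2, an axonal adhesion protein, read 80.5, 97.4 and 73 in the mutant pads and 31.3, 48.7 and 62.2 in the wild-type pads, a difference of 0.67 (SE 0.22). Sptbn1, a beta spectrin of the membrane skeleton, read 1122.7, 1162.9 and 1371.6 in the mutant pads and 884.4, 897.9 and 890.4 in the wild-type pads, a difference of 0.44 (SE 0.15). Spectrin is made in most cell types, so this level is not one of axons alone.

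Among the brightest genes of the list, the actin bundler Fscn1 and the membrane and actin protein Marcks also had groups that did not overlap, with differences of 0.25 (SE 0.16) and 0.29 (SE 0.16). Stmn1, the stathmin found in many dividing cells, read 8991.1, 7244.6 and 7415.2 in the mutant pads and 6802.1, 6084.2 and 7879.8 in the wild-type pads at its brightest probe set. Its groups overlapped, with a difference of 0.19 (SE 0.18). The tubulin gene Tuba1a differed by 0.16 (SE 0.18). Basp1, a growth-cone protein with properties like those of Gap43, differed by -0.06 (SE 0.16) and Marcksl1 by -0.14 (SE 0.16). Members with larger negative differences, named after their values were seen, were the tubulin gene Tubb6 at -0.79 (SE 0.36), the lowest of the list, Cap2 at -0.67 (SE 0.36), the microtubule-associated protein gene Dcx at -0.58 (SE 0.35) and Mapt, which encodes tau, at -0.41 (SE 0.22). All 4 had a mean above the highest bacterial control and groups that overlapped. Klc1, a kinesin light chain, stands in the authors' deposited table with a linear fold of 1.54 and higher values in mutant. The same probe set read 167.2, 167 and 218.9 in the mutant pads and 120, 149.1 and 197 in the wild-type pads, so its deposited signals overlapped between the groups. At the brightest Klc1 probe set, the one counted in the list, the difference was -0.215 (SE 0.24), in the other direction.

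Genes of neuron identity and of the neuron cell body had more members lower than higher. Of 33 measured, 17 had a mean above the highest bacterial control, and the median difference was -0.07. There were 14 higher, 42.4% of the list (50.1% of all genes), and 19 lower. The groups did not overlap with the mutant higher for 1 (5.54% of all genes) and with the mutant lower for 2 (4.83%). The summed signal was 2119.8 to 2710.3 in the mutant pads and 2305 to 2820.2 in the wild-type pads. That sum was weighted to Ebf3, the brightest gene of the list. Ebf3 read 1257.3, 1211 and 810.3 in the mutant pads and 1359.2, 1218.5 and 805.6 in the wild-type pads, a difference of -0.04 (SE 0.26). The sum is therefore no measure of neuron content. Elavl3, an RNA-binding protein of neurons, at its brightest probe set read 5.4, 9 and 41.7 in the mutant pads and 60.5, 56.1 and 67.9 in the wild-type pads, a difference of -1.30 (SE 0.36). Its mutant mean of 18.7 lay below the highest bacterial control. Insm1, a zinc finger factor of neuronal and neuroendocrine precursors, differed by -0.63 (SE 0.24). Phox2a, a homeodomain factor of autonomic neurons, differed by 0.53 (SE 0.17) with both means near background. The neurotrophin receptor gene Ntrk2 differed by -0.27 (SE 0.22) and the receptor gene Ret by -0.07 (SE 0.24), with overlapping groups. In the other direction, Elavl4 differed by 0.50 (SE 0.23), Isl2 by 0.22 (SE 0.33) and Ebf1 by 0.06 (SE 0.23), also with overlapping groups. All had a mean above the highest bacterial control, and Elavl4 was named after its values were seen. Whether the member differences differ from those of this list was not tested.

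Other intermediate filament genes had a median difference of -0.03 over 16 genes, with 0 non-overlapping and higher in the mutant (5.54% of all genes) and 2 non-overlapping and lower (4.83%), Nes and the lamin gene Lmnb2, of which Lmnb2 was named after its values were seen. Nes, the nestin filament gene of progenitor cells, read 76.1, 100.5 and 70.4 in the mutant pads and 144.5, 140.7 and 131.6 in the wild-type pads, a difference of -0.67 (SE 0.17). Vim, the filament of mesenchyme, differed by 0.12 (SE 0.18) and the basal keratin gene Krt14 by 0.27 (SE 0.30), both with overlapping groups.

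Markers of cells that lie along nerves were measured as well. The Schwann cell precursor list had a median difference of -0.02 over 14 genes, 11 of them with a mean above the highest bacterial control, with 5 higher and 9 lower. The groups did not overlap for 4 of them. The mutant was lower for 3, Ngfr, Fabp7 and Pmp22 (4.83% of all genes), and higher for 1, Gfra3, a receptor of the GDNF family (5.54%), by 0.38 (SE 0.18). The list's summed signal was 1683.2 to 2074.4 in the mutant pads and 1950 to 2371.6 in the wild-type pads. Ngfr, the low-affinity neurotrophin receptor of neural crest, glia and sensory neurons, read 263.9, 259.6 and 165.9 in the mutant pads and 407.1, 352.6 and 450.9 in the wild-type pads, a difference of -0.79 (SE 0.22). The glial lipid carrier Fabp7 differed by -0.54 (SE 0.18) and the myelin gene Pmp22 by -0.44 (SE 0.15). Pmp22 is also in the authors' deposited table, where it is lower in mutant with a linear fold of 1.56. Erbb3, the neuregulin receptor of Schwann cell precursors, read 255.9, 280.5 and 291 in the mutant pads and 293.3, 263 and 269.5 in the wild-type pads, a difference of 0 (SE 0.15). The part of nerve content in the member differences was not tested.

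Markers of other cell types that a dissected snout sample could hold were described in the same way. Olfactory neuron markers had a median difference of 0.03 over 12 genes, and their summed signal was 1243.3 to 1293 in the mutant pads and 865.1 to 1671.7 in the wild-type pads. Lhx8, the brightest of them, read 369.5, 573 and 476.4 in the mutant pads and 692, 385.8 and 131.2 in the wild-type pads. Lhx8 spread widely in both groups, whereas the sum spread widely only in the wild-type pads. The sum was weighted to Lhx8 and is no measure of olfactory neuron content. Omp read 50.3 to 92.4 in the mutant pads and 20.7 to 71.4 in the wild-type pads. Of the 12, 0 were non-overlapping and higher in the mutant (5.54% of all genes) and 2 non-overlapping and lower (4.83%). Those were Lhx2, a LIM homeodomain factor, at -1.18 (SE 0.25), and Hes5, a Notch target gene, at -1.20 (SE 0.32). Lhx2 read 19.4, 33.2 and 42.3 in the mutant pads and 122, 81.6 and 71 in the wild-type pads. Its mutant mean of 31.6 lay below the highest bacterial control. The authors' deposited table also lists Lhx2 as lower in mutant, with a linear fold of 1.86. Hes5 had a mean over 6 arrays at or below the highest bacterial control. Merkel and neuroendocrine cell markers had a median of 0.08 over 11 genes and summed signals of 714.4 to 818.6 in the mutant pads and 640.8 to 802.7 in the wild-type pads. Skeletal muscle markers had a median of 0.01 over 22 genes, of which 7 had a mean above the highest bacterial control. Groups did not overlap with the mutant higher for 1, Myog (5.54% of all genes), and with the mutant lower for 0 (4.83%). Myog read 25.6, 59.2 and 30.5 in the mutant pads and 8, 14.9 and 8.1 in the wild-type pads. It differed by 1.01 (SE 0.25), with only 1 array above the highest bacterial control. Mylpf, near background, differed by -0.79 (SE 0.34) with overlapping groups. Erythroid markers had a median of -0.26 over 9 genes and overlapping summed signals of 23148.3 to 26191.0 in the mutant pads and 24480.2 to 28879.7 in the wild-type pads. Most of that sum was globin, with wild-type means of 11010.8 for Hbb-y and 10640.6 for Hba-x. Groups did not overlap with the mutant higher for 0 (5.54% of all genes) and with the mutant lower for 3 (4.83%). The 3 were Slc4a1 at -0.56 (SE 0.16), Hemgn at -0.50 (SE 0.21) and Gata1, named after its values were seen, at -0.405 (SE 0.19). Another Slc4a1 probe set is in the authors' deposited table, lower in mutant with a linear fold of 1.68. Endothelial markers had a median of -0.03 over 10 genes, and their summed signal, 1317.8 to 1848.2 in the mutant pads and 1882.5 to 2230.1 in the wild-type pads, did not overlap. Sox18, a transcription factor of endothelium, read 415.7, 300.4 and 220.8 in the mutant pads and 767.5, 594.3 and 517.5 in the wild-type pads, and without it the sums of the other 9 overlapped, at 1097.0 to 1514.0 in the mutant pads and 1289.8 to 1462.6 in the wild-type pads. Markers of whisker pad epithelium and mesenchyme, measured to check the tissue label, had a median of -0.01. Of 23 genes, 20 had a mean above the highest bacterial control, Krt14, Krt5, Twist1, Prrx1 and Pdgfra among them. Edar, Shh and Alx4, named after their values were seen, did not. Groups did not overlap with the mutant higher for 1, Trps1 (5.54% of all genes), and with the mutant lower for 1, Edar (4.83%). Edar differed by -0.606 (SE 0.39). The part of these cell types in the member differences was not tested.

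**Figure D5:**
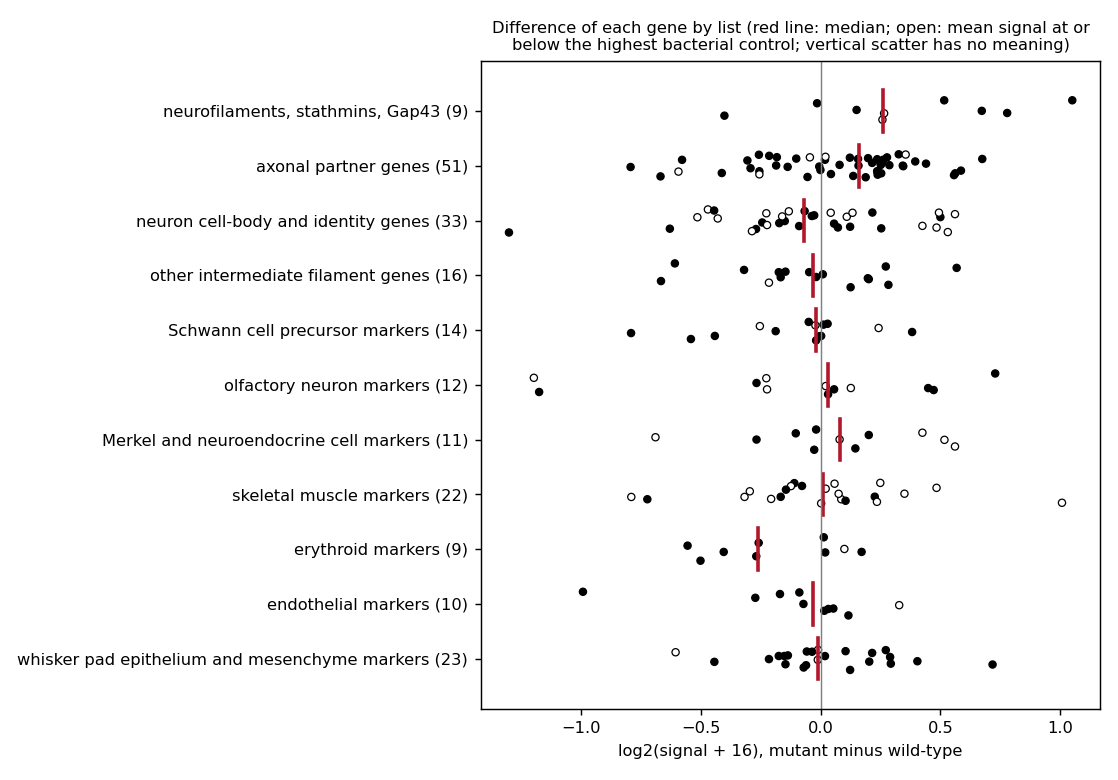
Difference between mutant and wild-type of every measured gene of 11 lists on the log2(signal + 16) scale, by each gene's brightest probe set, with a red line at the list's median. The medians are 0.26 for the neurofilament, stathmin and Gap43 genes, 0.16 for the axonal partner genes, -0.26 for the erythroid markers and between -0.07 and 0.08 for the other 8 lists.

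The genes whose pattern over the 6 arrays was most like the mean deviation of the 9 members were ranked among 9438 other genes with a mean above the highest bacterial control. As a description, 61 of them had a Pearson r above 0.9 and 60 below -0.9, and all of them share the arrays with the members. The 8 with the highest r were Stx1a (0.975), Actl7b (0.974), Nrip1 (0.974), Fam222b (0.969), Ndufaf1 (0.967), Fos (0.966), Hdgfl2 (0.964) and Ccnl1 (0.961). Stx1a, a syntaxin of the presynaptic membrane, read 244.7, 202.7 and 219.4 in the mutant pads and 171.2, 158.2 and 176.8 in the wild-type pads. Fos, an immediate early transcription factor, read 393.9, 211.6 and 347.3 in the mutant pads and 68, 72.5 and 120.8 in the wild-type pads. Its part in the member differences was not tested. The 4 with the lowest r were Grwd1 (-0.993), Castor2 (-0.990), Myg1 (-0.989) and Epb41l4b (-0.988). The ranking includes the difference between the groups, so genes that separate mutant from wild-type come first in it.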

How the data were processed

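RNA of 3 Trps1 mutant and 3 wild-type whisker pads was measured on MOE430A arrays, each from a separate embryo per the design text. The deposited values are 1 linear intensity per probe set and array, already scaled by the authors, and the method of summarising probes is not stated. In the authors' deposited table each of 65 probe sets has a fold, as a linear ratio, and a normalized log2 value per group. Per the design text it came from GeneSpring GX 10.0 with an unpaired t-test.

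The 64 control probe sets were left out. The genotypes were compared with limma 3.58.1 (R 4.3.3) on log2(signal + 16), with Benjamini-Hochberg adjustment over 22626 probe sets. Of these, 20380 had 1 gene, 691 several and 1555 none, and 20351 were matched by gene number to RefSeq (GRCm38.p6). A gene was represented by its probe set with the highest mean over 6 arrays. The fit was tested on simulated data.

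The members and lists were chosen with earlier results of these data known. Named genes are the members, Trps1, up to 6 per list by smallest p and the 6 brightest, the genes most and least like the members, and those of these lists in the authors' table. Alternatives covered scaling, offset, dim probe sets, variance prior, array weights, the methods' t-test, a block and left-out arrays. The number of arrays limits the precision.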

Additional observations from a re-analysis of the deposited data

How the results depend on the processing

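With 3 arrays per group and Affymetrix signals near background for 7 of the 16 probe sets, the precision is limited. Probe sets called over the whole table numbered 0 and, without the 7542 dimmest, 2 (Epyc and 1 with no gene name), and 1 with a trended variance prior (no gene name), where the count was 0 to 1 without 1 array (Rps9 without mutant replicate 3). None was a member. The count past the study's threshold was 723, and 318 without the dimmest probe sets, 311 with a floor of 32, 359 by the methods' t-test, 1250 without both replicate 3 arrays and 805 to 1121 without 1 array, highest without mutant replicate 3. The median difference of the 9 genes was 0.26, and 0.52 over those kept without the dimmest probe sets, 0.66 with an offset of 1, 0.15 with a floor of 32, 0.46 without both replicate 3 arrays and 0.23 to 0.42 without 1 array, highest without mutant replicate 2 or 3. Of 16 member probe sets 10 had a higher mutant mean, against 6 of the 8 kept without the dimmest and 10 to 13 without 1 array. The median of the axonal partner genes was 0.16, and 0.21 without the dimmest probe sets, 0.09 with the mean over all probe sets of a gene and 0.07 to 0.16 without 1 array, lowest without mutant replicate 2 (0.07) and then without wild-type replicate 2 (0.10). Differences of Nefm, Nefl, the brighter probe sets of Ina and Stmn2, and Gap43 were above 0 in all 13 alternatives run. Those of Nefh, of the brightest probe sets of Prph and Stmn3 and of the dimmest Ina probe set changed sign in at least 1 alternative. The difference of Prph at 1420256_x_at was never above 0.

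Replicate numbers are shared between the groups. Same-numbered arrays deviated together with correlations of 0.038, 0.069 and 0.136, and arrays of different number with -0.096 to 0.046. The same-numbered values were not all above 0.1, the cut-off used here, so the numbers were not taken to pair the arrays. Whether same-numbered arrays share a batch was not tested. With the replicate number as a block, 0 probe sets passed, 789 were past the study's threshold, the median differences were 0.26 and 0.16 and 10 member probe sets had a higher mutant mean.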
